A study of Homo sapiens with 12 samples.

Results

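SUPM2, an established human cell line of anaplastic large cell lymphoma (ALCL), was set against 2 other lines of the same lymphoma, DEL and Karpas299. SUPM2 was represented by 2 of the 12 arrays of the series, chosen by the cell line label, and DEL and Karpas299 by 2 arrays each. Each of these 3 lines, grown to logarithmic phase in RPMI medium with 10% fetal calf serum, gave 1 array of side population (SP) cells and 1 of main population (MP) cells, sorted by flow cytometry after staining with the DNA dye Hoechst, which SP cells export and MP cells keep. The 6 arrays of the remaining line, SUDHL-1, were not used. No line was treated beyond the dye, and all 3 lines are known for the NPM1-ALK fusion, which joins nucleophosmin to a receptor tyrosine kinase. A gene was described as outside the range when both SUPM2 values lay above, or both below, all 4 values of DEL and Karpas299, which held for 5567 of 18417 genes. SUPM2 is 1 line against 2, its SP and MP arrays are not separate lines, and the line cannot be told apart from the culture and array it was measured on. P-values therefore measure only the spread between these 6 arrays. That spread includes the difference between DEL and Karpas299 and may also be technical.

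ALCL is a lymphoma of mature T cells that express the surface receptor CD30 (TNFRSF8) and often keep the proteins of cytotoxic granules while losing parts of the T-cell receptor complex. The ALK fusion kinase signals through STAT3, ERK and AP-1, and lines of the same disease can differ in the T-cell genes they have kept, in the cytokines they secrete and in how much of the culture is in S phase. Entry into S phase is driven by E2F transcription factors, which switch on the helicase, polymerase and nucleotide synthesis genes of replication and are held back by the retinoblastoma family and by inhibitors of cyclin-dependent kinases such as p21 (CDKN1A).

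Signals were on the log2 scale, and values below are given for the SP array and then the MP array of a line. Medians over genes ran from 5.76 to 5.80 on the 6 arrays, lower quartiles from 4.32 to 4.48 and upper quartiles from 7.26 to 7.48, with both SUPM2 arrays at the high end of the lower quartile and the low end of the upper. Over all genes, the SP and MP arrays of 1 line correlated at 0.963 to 0.982, arrays of DEL with those of Karpas299 at 0.946 to 0.952, and arrays of SUPM2 with those of either other line at 0.923 to 0.938. These correlations are across genes, which are not independent replicates. Precision is limited by how few arrays there are.

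The markers of the disease were present with gaps. TNFRSF8 stood at 8.66 and 8.86 in DEL, 9.05 and 10.51 in Karpas299 and 7.72 and 7.63 in SUPM2, so SUPM2 was the lowest line, by 1.59 on average, without passing the test (limma, adjusted p = 0.208). IL2RA, the high-affinity chain of the IL-2 receptor, lay between 10.91 and 11.79 on all 6 arrays, and SUPM2 lay within the range of the other lines. BATF3, an AP-1 factor typical of ALCL, lay between 10.62 and 11.14, and the granule proteins perforin (PRF1) and granzyme B (GZMB) between 9.64 and 12.10. Of the T-cell receptor chains, CD3E and CD3G stood between 3.30 and 4.76 on every array, with SUPM2 within the range of the other lines. ALK had no probe set that named it alone and was not analysed here, and NPM1 lay between 12.03 and 12.29 on all arrays. Of the markers of other cell types, limma called 0 of 16 for B cells, 0 of 24 for myeloid cells, 0 of 13 for red cells and platelets, and 0 of 21 for stromal, endothelial and epithelial cells. At an unadjusted p under 0.05 these lists held 2, 0, 2 and 2 members higher and 0, 1, 0 and 0 lower. Over all 18417 genes, 2.19% were called, and at the unadjusted threshold 1423 were higher and 1731 lower.

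The first question was how far SUPM2 stood from the other lines. Both SUPM2 arrays lay above the other 4 for 3184 genes (17.3%) and below them for 2383 genes (12.9%), 5567 in all (30.2%). The same count was 4239 genes (23%) for DEL and 4060 (22%) for Karpas299, each against the other 4 arrays. After quantile normalization of the columns the SUPM2 count was 5116, and the counts of the other lines were not redone. Most of the genes outside the range were so by a small margin. The gap, the distance from the nearer SUPM2 value to the nearest value of the other lines, had a median of 0.13 for genes above and 0.28 for genes below, and it exceeded 1 for 128 genes above and 274 below. It exceeded 2, a 4-fold distance, for 38 genes above and 42 below.

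In limma's test of SUPM2 against the other 4 arrays, with population as a covariate and Benjamini-Hochberg adjustment over all genes, 404 genes (2.19%) passed an adjusted p of 0.05. Of these, 129 (0.7%) were higher in SUPM2 and 275 (1.49%) lower, and 403 lay outside the range. Because test and range use the same 6 values, the test is not separate evidence for the range. The median difference over all genes was 0.06 and the median standard error (SE) 0.21, and 393 of the 404 differed by at least 1. The count rests on all 6 arrays. It was 0 without either SUPM2 array, 15 without the DEL SP array, 10 without the DEL MP array, 9 without the Karpas299 SP array and 18 without the Karpas299 MP array, with 1 array fewer to estimate the spread. It was 99 when every probe set of the array, named or not, was tested.

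The gene furthest above the other lines encodes a secreted cytokine. IL17F, a product of Th17 cells that acts on epithelium and fibroblasts, stood at 4.99 and 4.69 in DEL, 4.54 and 5.08 in Karpas299 and 11.40 and 11.05 in SUPM2. Both SUPM2 arrays lay far above the narrow range of the other 4, a difference of 6.40 (SE 0.23, limma adjusted p = 0.00338). CD2, the adhesion receptor by which T cells bind CD58, stood at 4.42 and 4.38 in DEL, 4.54 and 4.34 in Karpas299 and 9.42 and 8.96 in SUPM2, a difference of 4.77 (SE 0.16, adjusted p = 0.00338). NRN1, a membrane-anchored neuritin first described in neurons, stood at 4.19 and 3.90, 4.70 and 4.03, and 9.65 and 9.00 in DEL, Karpas299 and SUPM2, a difference of 5.12 (SE 0.20, adjusted p = 0.00338). In each of these genes the 4 arrays of the other lines lay within 1 unit of each other.

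F2R, CSTA, TMPRSS11E, NAPSA and NAPSB were also among the 15 genes named for the largest gap above. F2R, the thrombin receptor PAR1, stood at 7.48 and 7.24 in DEL, 7.98 and 7.51 in Karpas299 and 11.37 and 11.41 in SUPM2, a difference of 3.84 (SE 0.22, limma adjusted p = 0.00904). CSTA, the cathepsin inhibitor cystatin A, lay between 4.39 and 4.48 on the 4 other arrays and at 8.37 and 8.17 in SUPM2. TMPRSS11E, a membrane serine protease, lay between 2.79 and 3.01 on the other arrays and at 8.45 and 7.17 in SUPM2, and its other probe set differed by 4.98 against 4.94 for the one used. The aspartic protease NAPSA stood at 10.50 and 10.62 in SUPM2 against 6.45 to 7.01 elsewhere, and its near copy NAPSB at 10.19 and 10.27 against 6.16 to 7.45. NAPSA and NAPSB are alike in sequence, so their signals may not be separate. All 5 passed limma's test, with adjusted p from 0.00338 for CSTA to 0.0392 for NAPSB. The list of proteases and their inhibitors, of which CSTA is a member, had 3 of 32 above (9.38%, against 17.3% of all genes) and 8 below (25%, against 12.9%). Its median was -0.17, with 1 called in each direction (0.7% of all genes were called higher and 1.49% lower).

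The other genes named for the largest gaps above were ZNF711, MINAR2, NUDT11, WIPI1, FAAH2, FUCA1 and SNX9. ZNF711, a zinc finger protein of chromatin, lay between 2.73 and 3.04 on the other arrays and at 7.55 and 7.06 in SUPM2, a difference of 4.38. WIPI1, which binds phosphoinositides on forming autophagosomes, stood at 7.14 and 6.91 in DEL, 6.36 on both Karpas299 arrays and 10.77 and 10.30 in SUPM2. SNX9, a sorting nexin of endocytosis, lay between 4.46 and 4.99 on the other arrays and at 8.06 and 7.71 in SUPM2. The lysosomal fucosidase FUCA1 differed by 3.66, the amide hydrolase FAAH2 by 3.30, NUDT11 by 3.82 and MINAR2 by 4.83. In all 7 genes the lower SUPM2 array was more than 2 above the highest other array.

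**Figure D1:**
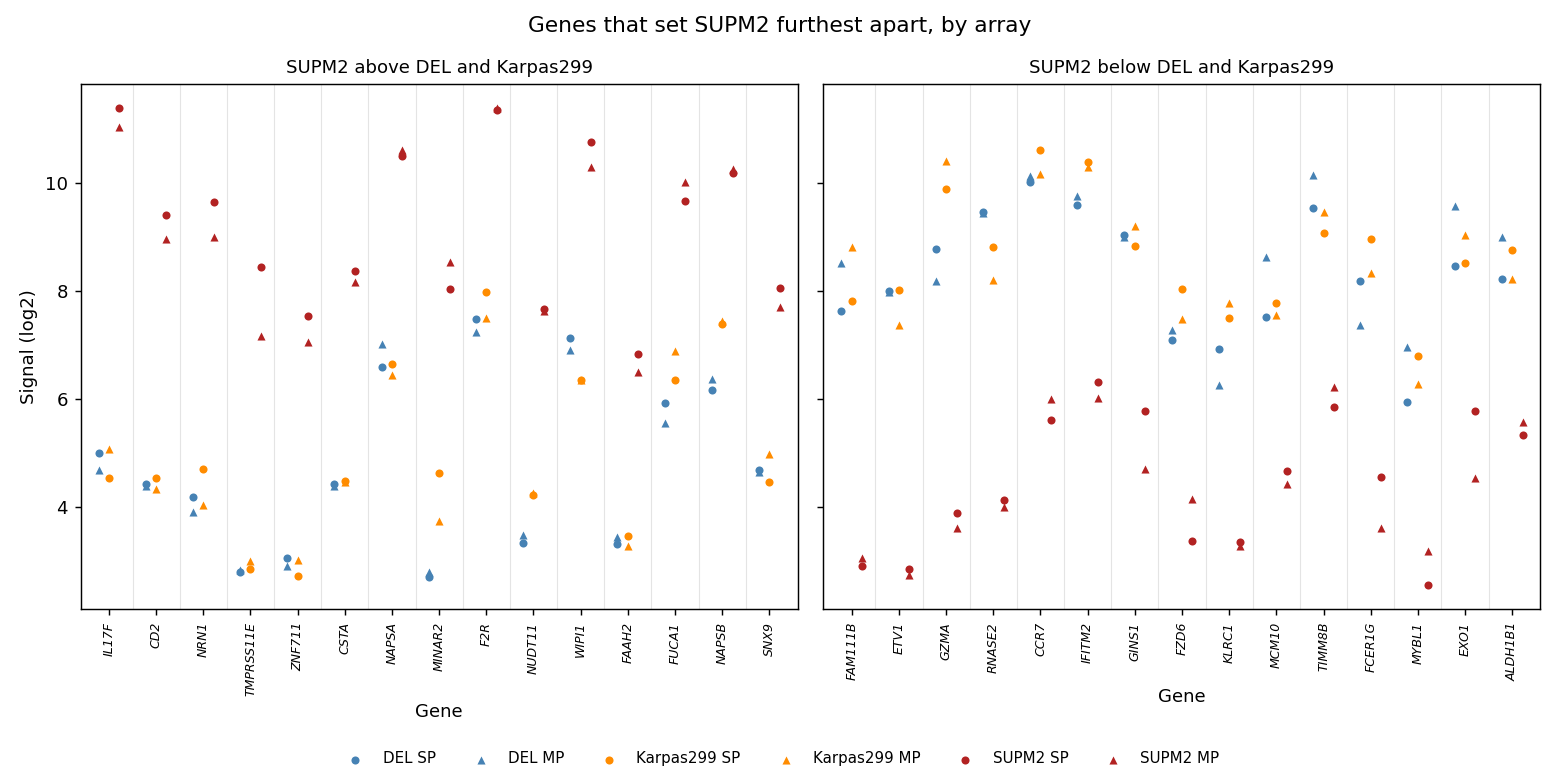
Log2 signal on each of the 6 arrays (circles SP, triangles MP, colours for the line) for the 15 genes named above and the 15 below by the largest gap among the genes reported. In the left panel the SUPM2 points lie above all others, up to IL17F at 11.40 and 11.05 against at most 5.08, and in the right panel they lie below, down to ETV1 at 2.84 and 2.73 against at least 7.37.

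Among the genes reported here, those furthest below were led by a replication gene and an ETS factor. FAM111B, a protease linked to replication, stood at 7.63 and 8.52 in DEL, 7.82 and 8.81 in Karpas299 and 2.91 and 3.06 in SUPM2, a difference of -5.21 (SE 0.24, limma adjusted p = 0.00489). ETV1, an ETS factor induced by ERK signalling, stood at 8.00 and 7.98, 8.02 and 7.37, and 2.84 and 2.73 in DEL, Karpas299 and SUPM2, a difference of -5.06 (SE 0.22, adjusted p = 0.00445). RNASE2, a secreted ribonuclease best known from eosinophils, stood at 9.48 and 9.46, 8.82 and 8.20, and 4.14 and 3.99, a difference of -4.93 (SE 0.40, adjusted p = 0.0186). In all 3, the SUPM2 arrays lay more than 4 below the lowest other array.

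IFITM2, which restricts virus entry and is a near copy of its neighbour IFITM3, lay between 9.60 and 10.39 in the other lines and at 6.32 and 6.02 in SUPM2, a difference of -3.85. FZD6, a receptor for Wnt ligands, stood at 3.37 and 4.16 in SUPM2 against 7.09 to 8.04, a difference of -3.71. MYBL1, a relative of MYB, stood at 2.54 and 3.18 against 5.95 to 6.97, a difference of -3.64, and MYB itself, a factor of progenitor cells, differed by -1.54 (9.39 to 10.02 against 8.21 and 8.04). ALDH1B1, a mitochondrial aldehyde dehydrogenase, stood at 5.34 and 5.57 against 8.22 to 9.01, a difference of -3.10. All 5 were called lower by limma (adjusted p from 0.0178 to 0.0393). The mitochondrial import protein TIMM8B also ranked among the 15 below, by -3.53, but its other probe set differed by only -0.98, so its size depends on the probe set.

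T-cell surface and receptor signalling genes went both ways. Of 28 measured members, 8 lay above the other lines (28.6%, against 17.3% of all genes) and 5 below (17.9%, against 12.9%). By limma 1 was higher, CD2 above, and 2 were lower (0.7% and 1.49% of all genes). The median difference was 0.00, against 0.06 over all genes. LAT, the membrane scaffold of the T-cell receptor, stood at 8.13 and 7.85 in DEL, 7.72 and 7.02 in Karpas299 and 5.59 and 5.73 in SUPM2, a difference of -2.02 (SE 0.31, adjusted p = 0.0457). THEMIS, an adaptor of thymocyte selection, stood at 4.82 and 4.81, 5.20 and 5.01, and 3.52 and 3.62, a difference of -1.39 (SE 0.18, adjusted p = 0.039).

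For several T-cell genes DEL and Karpas299 lay apart from each other as well, and none of these was called. CD4, the co-receptor for MHC class II, stood at 5.39 and 4.22 in DEL against 9.65 and 9.56 in Karpas299 and 9.32 and 9.66 in SUPM2. CD3D, a chain of the receptor complex, stood at 5.42 and 5.94 in DEL, 9.71 and 9.55 in Karpas299 and 9.34 and 8.86 in SUPM2. For both genes SUPM2 lay with Karpas299 and apart from DEL. CD247, the zeta chain, was 5.45 and 4.66, 7.51 and 7.62, and 8.50 and 8.11, so SUPM2 was highest and DEL lowest. CD5, a negative regulator of receptor signalling, was 5.84 and 7.04, 8.70 and 9.34, and 5.30 and 4.91, so SUPM2 was lowest (difference -2.62, SE 1.02, limma adjusted p = 0.281). The kinase LCK lay between 4.93 and 5.37 on all arrays, and CD7, an early T-cell antigen, between 7.16 and 7.63.

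Cytotoxic granule genes split by member. Of 16 measured, 2 lay above the range (12.5%, against 17.3% of all genes) and 3 below (18.8%, against 12.9%), near the shares over all genes. Limma called 0 higher and 2 lower (0.7% and 1.49% of all genes). GZMA, granzyme A, stood at 8.78 and 8.19 in DEL, 9.90 and 10.41 in Karpas299 and 3.88 and 3.62 in SUPM2, a difference of -5.57 (SE 0.67, adjusted p = 0.0348). NKG7, a granule membrane protein needed for degranulation, stood at 11.42 and 11.78, 11.48 and 11.46, and 8.24 and 8.94, a difference of -2.94 (SE 0.20, adjusted p = 0.0151). Granzyme B and perforin did not share this: GZMB stood at 9.64 and 9.91, 11.37 and 11.76, and 12.10 and 11.68, with SUPM2 overlapping Karpas299, and PRF1 at 11.52 and 11.59, 10.80 and 10.79, and 11.62 and 11.73. GZMM, granzyme M, was 6.85 and 6.72 in SUPM2 against 5.82 to 6.21, above the range without passing the test (adjusted p = 0.118). GZMK and GNLY (granulysin) stood below 6 on all arrays.

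Among 22 NK receptors and adaptors, 5 lay above (22.7%, against 17.3% of all genes) and 4 below (18.2%, against 12.9%). Limma called 0 higher and 2 lower (0.7% and 1.49% of all genes). KLRC1, the inhibitory receptor NKG2A that recognises HLA-E, stood at 6.93 and 6.27 in DEL, 7.51 and 7.78 in Karpas299 and 3.34 and 3.27 in SUPM2, a difference of -3.82 (SE 0.45, adjusted p = 0.0336). FCER1G, the signalling chain shared by Fc and NK receptors, stood at 8.18 and 7.37, 8.97 and 8.34, and 4.55 and 3.62, a difference of -4.13 (SE 0.36, adjusted p = 0.0201). HCST, the adaptor DAP10 of the receptor NKG2D, was 7.02 and 8.26, 8.87 and 8.85, and 10.02 and 9.86, so SUPM2 was highest, with an adjusted p of 0.22. The related adaptor TYROBP lay between 6.30 and 6.52 on all 6 arrays.

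**Figure D2:**
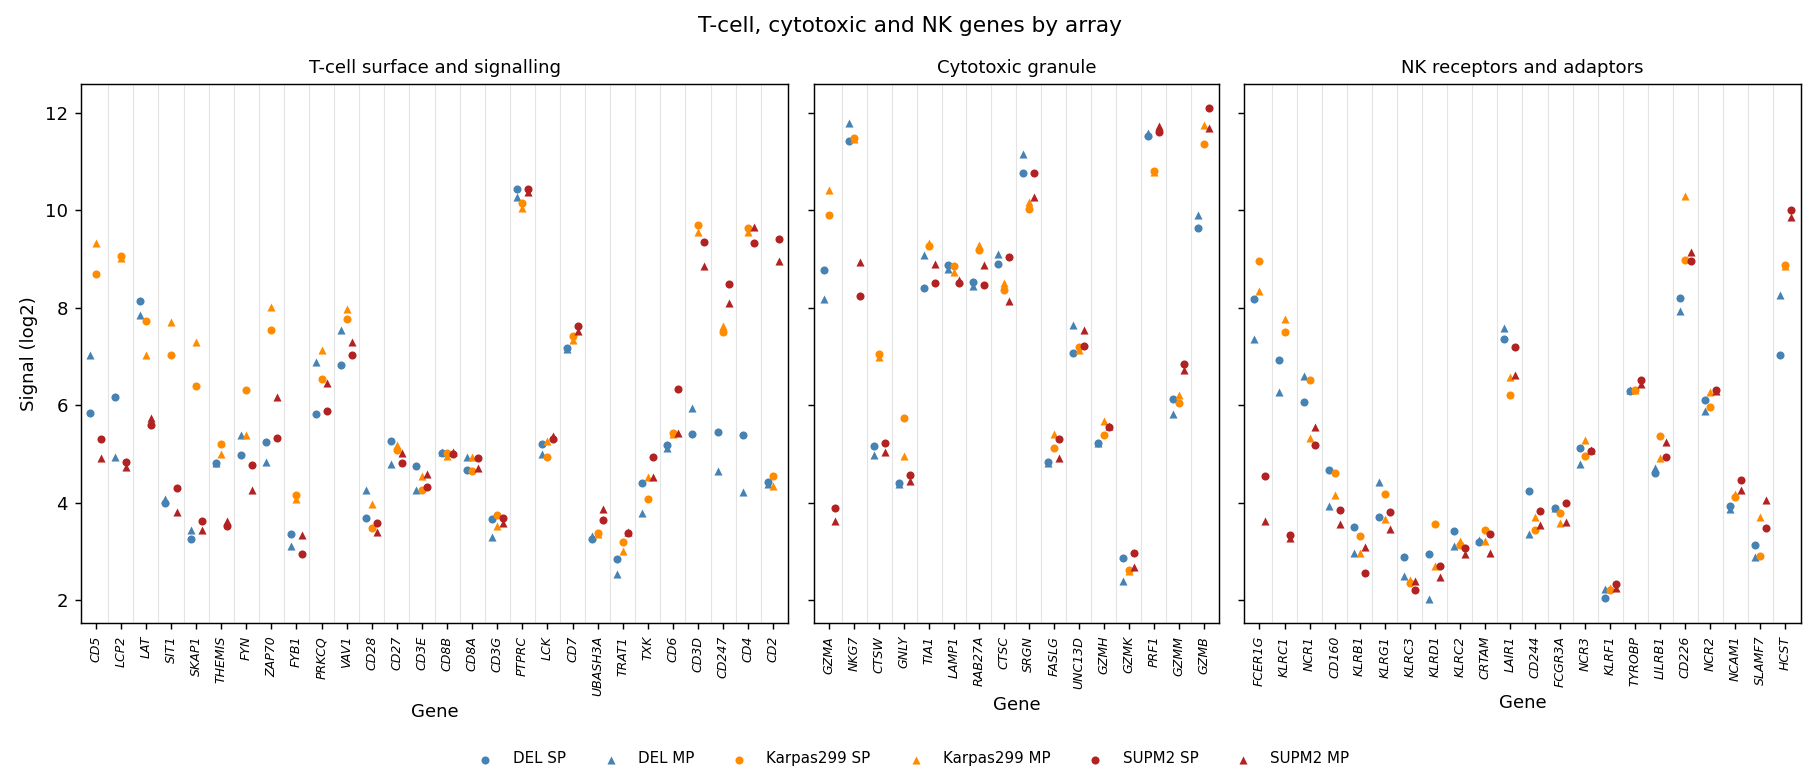
Log2 signal on each of the 6 arrays (circles SP, triangles MP, colours for the line) for every measured gene of the T-cell, cytotoxic granule and NK lists, ordered within a panel by the difference of SUPM2 from the other lines. GZMA, NKG7, FCER1G and KLRC1 at the left of their panels have both SUPM2 points well below the others, CD2 at the right of its panel has them above at 9.42 and 8.96, and CD4 and CD3D show SUPM2 beside Karpas299 with DEL low.

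Secreted cytokines other than IL17F gave no call. Of 31 measured, 6 lay above (19.4%, close to the 17.3% of all genes) and 2 below (6.45%, against 12.9%). Of the list, 1 was called higher and 0 lower (0.7% and 1.49% of all genes). IL22, which like IL17F is made by Th17 cells, stood at 6.59 and 4.62 in DEL, 11.56 and 11.89 in Karpas299 and 3.64 and 4.24 in SUPM2. SUPM2 was the lowest line for it, and Karpas299 the highest (difference -4.73, SE 2.34, limma adjusted p = 0.382). EBI3, the shared subunit of IL-27 and IL-35, was 7.54 and 7.58 in SUPM2 against 5.18 to 6.82, and IL1A was 4.42 and 4.84 against 3.43 to 3.98. LIF was 4.23 and 4.54 against 5.03 to 5.54. None of these 3 passed the test.

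Chemokine genes were led by CCR7, the receptor that guides lymphocytes to lymph nodes. CCR7 stood at 10.04 and 10.14 in DEL, 10.62 and 10.17 in Karpas299 and 5.61 and 6.01 in SUPM2, a difference of -4.43 (SE 0.24, limma adjusted p = 0.00792). It was the 1 gene called among 31 chemokines and chemokine receptors (1.49% of all genes were called lower). Of these 31, 5 lay above (16.1%, against 17.3% of all genes) and 3 below (9.68%, against 12.9%), close to the shares over all genes. CCL20, the ligand of CCR6, stood at 8.63 and 8.58, 7.49 and 5.91, and 3.32 and 3.48, a difference of -4.25 that did not pass (SE 0.80, adjusted p = 0.0744). Both SUPM2 arrays lay below the range for it, and the arrays of Karpas299 differed from each other.

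Of 36 cytokine receptors, 9 lay below (25%, against 12.9% of all genes) and 5 above (13.9%, against 17.3%), with 0 called higher and 2 called lower (0.7% and 1.49% of all genes). IFNGR2, a chain of the interferon gamma receptor, stood at 6.25 and 6.27 in SUPM2 against 7.47 to 7.98, a difference of -1.48 (SE 0.20, limma adjusted p = 0.0392). IL1R1, the signalling receptor for IL-1, stood at 8.45 and 8.69 against 9.59 to 9.92, a difference of -1.21 (SE 0.18, adjusted p = 0.044). IL7R, the receptor for the T-cell survival factor IL-7, stood at 7.72 and 8.19 in DEL, 6.36 and 5.62 in Karpas299 and 2.93 and 3.19 in SUPM2. Its difference of -3.91 did not pass (SE 0.78, adjusted p = 0.0846), and DEL and Karpas299 lay apart from each other too.

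Adhesion genes had 10 of 37 members below (27%, against 12.9% of all genes) and 5 above (13.5%, against 17.3%), with 0 called higher and 2 lower (0.7% and 1.49% of all genes). CD44, the hyaluronan receptor, stood at 9.05 and 8.56 in DEL, 8.72 and 8.20 in Karpas299 and 5.60 on both SUPM2 arrays, a difference of -3.03 (SE 0.22, limma adjusted p = 0.0156). CD9, a tetraspanin, stood at 8.31 and 8.14, 7.55 and 7.00, and 5.27 and 4.96, a difference of -2.63 (SE 0.39, adjusted p = 0.0439). ITGAL, the alpha chain of LFA-1, was 6.95 and 7.20 in SUPM2 against 5.19 to 6.32, above the range with an adjusted p of 0.129. In the TNF superfamily 8 of 33 lay above (24.2%, against 17.3% of all genes) and 6 below (18.2%, against 12.9%). TNFSF10, the death ligand TRAIL, stood at 7.46 and 7.41 in SUPM2 against 9.00 to 9.22 (difference -1.66, SE 0.15, adjusted p = 0.0201), and TNFRSF1B, the second TNF receptor, at 5.17 and 5.44 against 6.30 to 6.56 (difference -1.18, SE 0.17, adjusted p = 0.0438). CD70, the ligand of CD27, was 9.22 and 9.06 in DEL, 7.92 and 8.09 in Karpas299 and 11.00 and 10.16 in SUPM2, the highest line, with an adjusted p of 0.125.

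Among 24 immune checkpoint genes, 4 lay above (16.7%) and 3 below (12.5%), close to the shares over all genes. In each direction 1 was called (0.7% of all genes were called higher and 1.49% lower). CD86, the costimulatory ligand of CD28 and CTLA-4, stood at 5.32 and 4.99 in DEL, 5.12 and 4.34 in Karpas299 and 6.90 and 6.42 in SUPM2, a difference of 1.72 (SE 0.22, limma adjusted p = 0.039). CD276, the ligand B7-H3, stood at 7.50 and 7.63, 7.78 and 7.85, and 5.83 and 5.16, a difference of -2.19 (SE 0.23, adjusted p = 0.0272). CD274, the ligand PD-L1, was 9.01 and 9.24 in SUPM2 against 9.34 to 9.99, just below the range (adjusted p = 0.248). MHC class II genes had 0 of 11 members outside the range, and 0 were called by limma at an adjusted or unadjusted p of 0.05. HLA-DQA1, for example, stood at 7.96 and 6.79 in DEL, 11.51 and 11.13 in Karpas299 and 6.99 and 6.93 in SUPM2, which lay beside DEL.

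Genes of the G1/S transition, whose products license origins and copy DNA, had the largest share of members on 1 side among the 42 lists. Of 30 measured, 29 lay below the other lines (96.7%, against 12.9% of all genes) and 0 above, and limma called 16 lower and 0 higher (1.49% of all genes were called lower). The median difference was -1.92 against 0.06 over all genes. List means were 8.12 and 8.64 in DEL, 8.52 and 8.88 in Karpas299 and 6.60 and 6.26 in SUPM2. The single exception was CCND2 (cyclin D2), which stood between 4.12 and 4.60 on all arrays. The count of 29 below was unchanged against DEL alone, against Karpas299 alone and without any 1 of the 6 arrays. Leaving out arrays cannot lower such a count, so its stability is no check of it. The number called was 9 against DEL alone, 23 against Karpas299 alone and 0 without any 1 array of DEL or Karpas299. In sorted bulk cells, fewer cells in S phase and less RNA of these genes per cell cannot be told apart.

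The G1/S list holds genes that load and fire the replicative helicase. CDC6, which loads the helicase at origins, stood at 7.90 and 8.91 in DEL, 8.86 and 9.42 in Karpas299 and 5.37 and 4.37 in SUPM2, a difference of -3.90 (SE 0.50, limma adjusted p = 0.0384). GINS1, a subunit of the active helicase, stood at 9.05 and 9.00, 8.85 and 9.20, and 5.78 and 4.70, a difference of -3.78 (SE 0.31, adjusted p = 0.0186). MCM10, which helps the helicase start, stood at 7.53 and 8.64, 7.77 and 7.55, and 4.66 and 4.42, a difference of -3.33 (SE 0.35, adjusted p = 0.0272). In all 3 the SUPM2 arrays lay more than 2 below the nearest other array. The 6 genes of the MCM2-7 helicase ring were all called lower, by -3.16 for MCM5, -3.07 for MCM4, -2.56 for MCM7, -2.31 for MCM3, -2.29 for MCM2 and -1.44 for MCM6. CDC45, the third part of the active helicase, differed by -3.07. CDT1, the partner of CDC6 in loading, stood at 6.51 and 6.01 in SUPM2 against 6.75 to 7.97, below the range without passing the test (adjusted p = 0.18).

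The list also holds polymerase, nuclease, nucleotide synthesis and cyclin genes. POLA1, the catalytic subunit of the priming polymerase, stood at 7.33 and 7.62 in DEL, 7.66 and 8.25 in Karpas299 and 5.50 and 5.16 in SUPM2 (difference -2.39). The clamp PCNA stood at 10.01 and 10.39, 10.12 and 10.56, and 8.95 and 9.14 (difference -1.23, SE 0.15), and the flap nuclease FEN1 differed by -1.76. EXO1, a nuclease of mismatch repair, stood at 8.47 and 9.58, 8.52 and 9.05, and 5.78 and 4.54 (difference -3.75). The S-phase cyclins CCNE2 and CCNE1 differed by -3.04 and -1.90. These 6 passed limma's test. RRM2 and TYMS, which make deoxynucleotides, differed by -1.95 and -1.48 without passing (adjusted p = 0.0725 and 0.29), and E2F1 stood at 6.69 and 7.33 against 7.91 to 8.40 (adjusted p = 0.103).

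The promoters of the G1/S group were searched for the E2F motif, since the group holds genes that E2F factors are known to control. Its share of matches therefore follows from the choice of the list and is not evidence about SUPM2. The words TTTCCCGC, TTTCGCGC, TTTGCCGC and TTTGGCGC were searched on both strands, overlaps allowed, in the 250 bases before each start of RefSeq's promoter table (GRCh38.p14). Of all windows in the table, 979 of 35116 held a match (2.79%), and of windows of the genes tested 703 of 20084 (3.5%). The G1/S list held a match in 13 of 36 windows (36.1%), which belong to 25 of its 30 genes, and the G2/M list in 2 of 37 (5.41%). Windows of all genes called lower in SUPM2 held one in 26 of 328 (7.93%), and windows of genes called higher in 7 of 158 (4.43%). The genes called lower include the 16 called G1/S genes, so the 2 shares are not separate. Within the G1/S list, a match was present in 5 of the 13 called genes with a window (MCM3, MCM6, MCM7, PCNA and POLA1) and in 8 of the 12 others. A match is a description of these letters and not a measured binding site.

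The windows of the 3 called G1/S genes with a match and the largest gap are shown with the motif in capitals, 5′ to 3′ on the strand of the gene. The window of POLA1 (chrX:24693668-24693917, plus strand) has 1 match, which begins 137 bases before the start. That of MCM7 (chr7:100101398-100101647, minus strand) has 2, beginning 187 and 9 bases before it, and that of MCM3 (chr6:52284743-52284992, minus strand) has 1, beginning 174 bases before it.
POLA1: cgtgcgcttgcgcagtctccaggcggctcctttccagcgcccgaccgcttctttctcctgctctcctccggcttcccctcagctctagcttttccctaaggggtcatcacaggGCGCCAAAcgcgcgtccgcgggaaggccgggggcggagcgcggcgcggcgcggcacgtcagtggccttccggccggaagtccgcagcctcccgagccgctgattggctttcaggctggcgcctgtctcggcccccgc
MCM7: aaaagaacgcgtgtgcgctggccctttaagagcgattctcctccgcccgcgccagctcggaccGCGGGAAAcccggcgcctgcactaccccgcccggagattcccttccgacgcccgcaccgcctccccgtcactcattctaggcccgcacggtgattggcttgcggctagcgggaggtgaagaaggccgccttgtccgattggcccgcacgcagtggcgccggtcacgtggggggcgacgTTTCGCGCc
MCM3: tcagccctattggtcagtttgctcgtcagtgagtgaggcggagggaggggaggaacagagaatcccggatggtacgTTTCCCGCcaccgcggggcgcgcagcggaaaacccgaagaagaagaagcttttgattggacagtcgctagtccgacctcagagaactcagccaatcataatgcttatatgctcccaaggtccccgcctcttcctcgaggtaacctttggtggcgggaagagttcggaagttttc

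G2/M genes, which condense chromosomes and build the spindle, differed less and mainly on 1 array. Of 34 measured, 9 lay below (26.5%, against 12.9% of all genes) and 0 above (17.3% of all genes), with a median of -0.79. List means were 8.14 and 7.90 in DEL, 8.87 and 8.44 in Karpas299 and 8.19 and 7.14 in SUPM2, so the SUPM2 SP array lay between the arrays of the other lines and the MP array below them. Without the SUPM2 SP array 28 of 34 lay below, and without the SUPM2 MP array 9 lay below and 5 above. Of all 18417 genes, 9643 and 10514 lay outside the range on either side in these settings. Leaving out an array cannot lower such counts. CDK1, the mitotic kinase, was the 1 member called (1.49% of all genes were called lower). It stood at 7.44 and 6.60 in DEL, 7.31 and 6.89 in Karpas299 and 5.91 and 4.35 in SUPM2 (difference -1.93, SE 0.26, limma adjusted p = 0.0392). CCNB1 (cyclin B1), its partner, was within the range at 9.72 and 8.74 against 9.24 to 10.21, and MKI67, the proliferation antigen Ki-67, stood at 7.77 and 8.12 against 8.47 to 9.27 (adjusted p = 0.248).

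**Figure D3:**
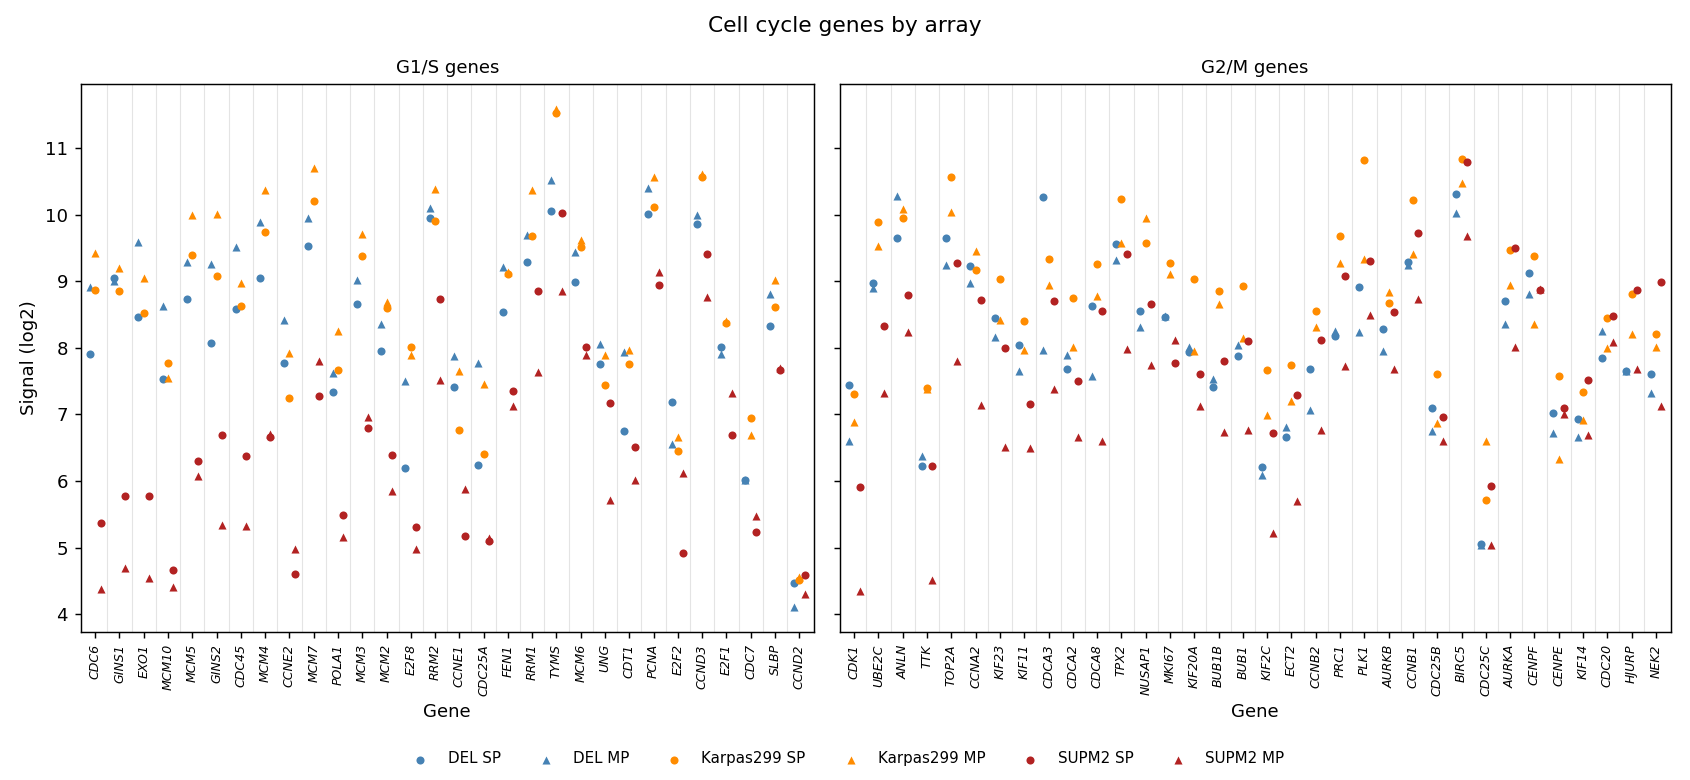
Log2 signal on each of the 6 arrays (circles SP, triangles MP, colours for the line) for every measured G1/S gene (left) and G2/M gene (right), ordered by the difference of SUPM2 from the other lines. In the left panel both SUPM2 points lie below all others for 29 of 30 genes, and in the right panel this holds for 9 of 34, where the SUPM2 SP point often lies among those of the other lines.

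Inhibitors of the cell cycle and targets of p53 lay mostly on the other side. Of 21 measured, 11 lay above (52.4%, against 17.3% of all genes) and 3 below (14.3%, against 12.9%), limma called 5 higher and 1 lower (0.7% and 1.49% of all genes), and the median was 0.55. CDKN1A, the kinase inhibitor p21, stood at 7.79 and 8.17 in DEL, 6.95 and 7.17 in Karpas299 and 10.23 and 10.45 in SUPM2, a difference of 2.82 (SE 0.37, adjusted p = 0.0392). MDM2, the ubiquitin ligase that degrades p53, stood at 8.99 and 8.95, 8.43 and 8.00, and 10.66 and 10.83, a difference of 2.15 (SE 0.33, adjusted p = 0.0457). RRM2B, the p53-inducible ribonucleotide reductase subunit, stood at 6.85 and 6.50, 6.73 and 6.34, and 7.91 and 8.15, a difference of 1.42 (SE 0.20, adjusted p = 0.0403). In these 3 genes every SUPM2 value exceeded every other value by more than 1. CCNG1 (cyclin G1) and TP73, a relative of p53, were also called, by 1.39 and 1.12.

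The member called lower was RBL1 (p107), a retinoblastoma relative that is itself an E2F target, at 5.59 and 5.75 in SUPM2 against 7.54 to 8.42 (difference -2.19, SE 0.24, limma adjusted p = 0.0279). Larger differences without a call were those of TP53INP1, a p53-induced nuclear protein, at 6.30 and 5.72, 4.21 and 4.39, and 8.55 and 8.49 (difference 3.36, adjusted p = 0.0837), and of MDM4, the partner of MDM2, at 8.75 and 9.09, 8.03 and 7.46, and 11.44 and 10.62 (difference 2.70, adjusted p = 0.0749). For both, SUPM2 lay above both lines while DEL lay above Karpas299. PMAIP1 (NOXA), a BCL2 family member that p53 can induce, stood at 10.54 and 10.46 in SUPM2 against 8.21 to 9.50 (adjusted p = 0.105). GADD45A and CDKN1B (p27) were within the range. The 11 above were 12 and 14 without the SUPM2 SP and MP array, but such a count cannot fall when an array is left out. Over all genes, those outside the range on either side rose from 5567 to 9643 and 10514 in these settings. Without any 1 array of DEL or Karpas299, 0 members of the list were called.

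Genes of serine synthesis and targets of ATF4, the transcription factor of the amino acid and unfolded protein response, held the largest share above. Of 24 measured, 16 lay above (66.7%, against 17.3% of all genes) and 1 below (4.17%, against 12.9%). By limma 4 were higher and 0 lower (0.7% and 1.49% of all genes), and the median was 0.78. List means were 8.39 and 8.06 in DEL, 7.47 and 7.10 in Karpas299 and 8.76 and 8.69 in SUPM2. DEL thus lay nearer to SUPM2 than Karpas299 did. DDIT3, the stress factor CHOP, stood at 7.37 and 7.35 in DEL, 7.85 and 6.99 in Karpas299 and 9.86 and 9.95 in SUPM2, a difference of 2.51 (SE 0.24, adjusted p = 0.0225). TRIB3, a pseudokinase induced by CHOP, stood at 6.95 and 6.37, 6.44 and 6.20, and 8.62 and 8.63, a difference of 2.14 (SE 0.22, adjusted p = 0.026). CHAC1, which degrades glutathione, stood at 6.88 and 6.28, 6.86 and 5.85, and 8.25 and 8.16, a difference of 1.74 (SE 0.23, adjusted p = 0.0392). In all 3 the SUPM2 arrays stood close to each other and more than 1 above the rest. ATF3 differed by 1.65 (SE 0.17, adjusted p = 0.0268), and ATF4 itself stood at 11.42 and 11.46 against 10.43 to 10.97, above the range with an adjusted p of 0.122.

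The metabolic members of this list varied between DEL and Karpas299. PHGDH, the first enzyme of serine synthesis, stood at 8.53 and 8.45 in DEL, 5.76 and 5.67 in Karpas299 and 5.12 and 5.33 in SUPM2, the 1 member below the range. PSAT1, the next enzyme, stood at 9.89 and 9.03, 5.60 and 4.76, and 9.62 and 9.26, so for it SUPM2 lay with DEL. SLC7A11, the cystine importer, stood at 8.13 and 6.81, 6.31 and 4.47, and 8.90 and 9.23, and ASNS, asparagine synthetase, at 10.74 and 9.89, 9.31 and 9.78, and 11.49 and 11.28. SUPM2 was highest for both of the latter, and none of the 4 passed the test (limma adjusted p from 0.161 to 0.56). Chaperones of the endoplasmic reticulum, another output of the unfolded protein response, lay below for 9 of 20 (45%, against 12.9% of all genes) and above for 2 (10%, against 17.3%), with a median of -0.22. The disulfide isomerases PDIA4 and PDIA6 were called lower, by -1.36 and -1.21 (adjusted p = 0.0392 and 0.044), and HSPA5 (BiP) lay within the range, between 11.76 and 12.14 on all arrays.

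**Figure D4:**
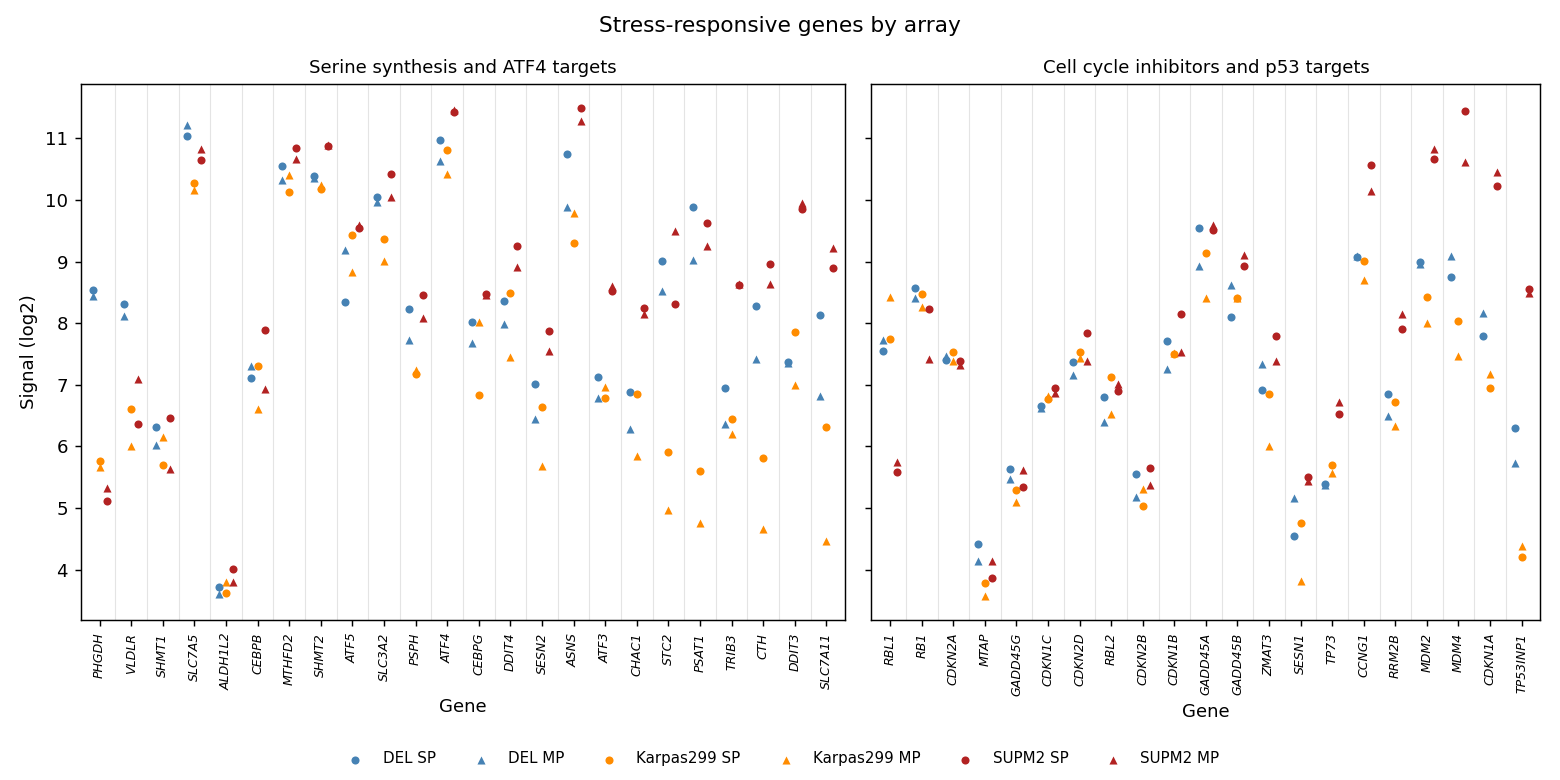
Log2 signal on each of the 6 arrays (circles SP, triangles MP, colours for the line) for every measured gene of the serine and ATF4 list (left) and of the cell cycle inhibitor and p53 list (right), ordered by the difference of SUPM2 from the other lines. DDIT3 (9.86 and 9.95 in SUPM2) and CDKN1A (10.23 and 10.45) stand clear of all other points, while PSAT1 and STC2 show SUPM2 beside DEL and above Karpas299.

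Interferon-stimulated genes lay above for 12 of 32 (37.5%, against 17.3% of all genes) and below for 3 (9.38%, against 12.9%), with a median of 0.39. By limma 2 were higher and 0 lower (0.7% and 1.49% of all genes). The interferon-inducible IFITM2, called lower by -3.85 above, is not on this list. IFI27 stood at 5.17 and 5.16 in DEL, 6.11 and 5.91 in Karpas299 and 8.78 and 8.70 in SUPM2, a difference of 3.15 (SE 0.34, limma adjusted p = 0.0279). ISG15, a ubiquitin-like modifier, stood at 7.63 and 8.14, 7.75 and 8.27, and 9.01 and 9.52, a difference of 1.32 (SE 0.14, adjusted p = 0.0279). TRIM22, a ubiquitin ligase, was 5.18 and 5.06, 6.66 and 6.02, and 8.69 and 8.31, a difference of 2.77 with an adjusted p of 0.0629. Other members placed Karpas299 highest: MX1 stood at 6.44 and 6.82, 8.22 and 8.37, and 6.59 and 6.85.

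AP-1 and BATF factors lay above for 6 of 15 (40%, against 17.3% of all genes) and below for 0 (12.9% of all genes), with a median of 0.28. ATF3, given above, was the 1 call (0.7% of all genes were called higher). JUN stood at 8.08 and 7.38 in DEL, 8.98 and 8.99 in Karpas299 and 9.51 and 9.78 in SUPM2, and JUNB, a target of the ALK fusion, at 11.27 and 11.30, 11.59 and 11.43, and 11.95 and 12.09. SUPM2 was the highest line for both, without a call (limma adjusted p = 0.298 and 0.158). Genes that report and limit ERK signalling lay above for 5 of 23 and below for 5 (21.7% each, against 17.3% and 12.9% of all genes). SPRY2, a feedback inhibitor of receptor kinases, stood at 3.52 and 3.21, 3.43 and 3.53, and 7.34 and 6.17, a difference of 3.33 (SE 0.28, adjusted p = 0.0201). DUSP7, a phosphatase of ERK, was called lower by -1.08 (7.17 and 7.19 against 8.11 to 8.51), as was ETV1 above. MYC stood at 10.37 and 10.54, 10.46 and 9.40, and 8.15 and 8.00, a difference of -2.12 that just missed (SE 0.34, adjusted p = 0.0507).

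JAK, STAT, SOCS and PIM genes gave 0 calls, with 1 of 27 above (3.7%, against 17.3% of all genes), 7 below (25.9%, against 12.9%) and a median of -0.28. At an unadjusted p under 0.05 limma had 1 member higher and 4 lower. PIM1, a kinase induced by STAT factors, stood at 6.38 on both SUPM2 arrays against 7.22 to 7.60 (limma adjusted p = 0.0627), and its relative PIM2 at 9.52 and 9.54 against 7.54 to 8.92 (adjusted p = 0.238). The phosphatase PTPN11 (SHP2) stood at 8.34 and 8.32 against 9.20 to 9.85, and CISH, a feedback inhibitor of STAT5, at 5.54 and 5.51 against 6.08 to 6.39. At an unadjusted p under 0.05 limma passed 3154 genes over the whole table, 1423 higher and 1731 lower.

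Chromatin genes included 4 calls. DNMT1, which copies DNA methylation at replication, stood at 8.57 and 8.50 in DEL, 8.78 and 8.79 in Karpas299 and 7.05 and 7.10 in SUPM2, a difference of -1.59 (SE 0.17, limma adjusted p = 0.027). SUZ12, a core Polycomb subunit, stood at 9.43 and 9.27, 9.74 and 9.50, and 7.77 and 8.01, also -1.59 (SE 0.19, adjusted p = 0.036), and RBBP4, a histone chaperone of the same complex, differed by -1.79. IDH1, which makes a cofactor of demethylases, was called higher by 1.27. Of the 28 genes measured, 2 lay above (7.14%, against 17.3% of all genes) and 7 below (25%, against 12.9%), with 1 called higher and 3 lower (0.7% and 1.49% of all genes). Of 28 T helper lineage factors, 5 lay above (17.9%, against 17.3% of all genes) and 6 below (21.4%, against 12.9%). TOX2, an HMG-box factor of T cells, was the 1 call among them, at 5.49 and 5.20 against 7.46 to 8.25 (difference -2.47). Its other probe set differed by 0.25 in the other direction, so the call holds for 1 of its 2 probe sets.

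Single calls came from other lists (0.7% of all genes were called higher and 1.49% lower). ABCA1, the cholesterol exporter, was higher by 1.83 and ABCE1, a ribosome recycling factor, lower by -1.61, among 27 ABC transporters. Of these 27, 3 lay above (11.1%, against 17.3% of all genes) and 9 below (33.3%, against 12.9%). GSTA4, a glutathione transferase, was higher by 2.32 and GSS, glutathione synthetase, lower by -1.47, among 29 genes of the glutathione and NRF2 list. Of these 29, 5 lay above (17.2%) and 1 below (3.45%). ADAM19, a membrane metalloprotease, was lower by -1.96. SLPI, a leukocyte protease inhibitor, stood at 8.85 and 10.18 in DEL, 10.49 and 11.19 in Karpas299 and 6.20 and 7.56 in SUPM2 (difference -3.30, limma adjusted p = 0.0511). CFLAR (FLIP), which blocks caspase-8, was lower by -1.54 and by -2.41 on its other probe set, while CASP8 stood at 7.92 and 7.74 against 6.59 to 7.09 (adjusted p = 0.0932). The calcium-binding protein S100A13 was lower by -1.27.

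Several lists had members above the range by small amounts and no call. HOX genes lay above for 5 of 27 (18.5%), cancer-testis antigens for 10 of 29 (34.5%) and erythroid and platelet markers for 6 of 13 (46.2%), against 17.3% of all genes, with medians of 0.15, 0.21 and 0.23 and 0 calls in each. At an unadjusted p under 0.05 limma had 2, 1 and 2 members higher and 0 lower in these lists. The SUPM2 arrays had the highest lower quartiles, as given above, and after quantile normalization of the 6 columns these counts were 3, 7 and 2, against 2723 of all genes (14.8%) above. Under the same step the G1/S list had 29 below and 0 above, the p53 list 12 above and 1 below (3 below before it), and the ATF4 list 15 above and 1 below. Respiratory chain genes lay above for 7 of 30 (23.3%) and below for 0, and glycolysis and hypoxia genes below for 10 of 33 (30.3%) and above for 3 (9.09%), with 0 calls in both, against 17.3% above and 12.9% below over all genes. At an unadjusted p under 0.05 limma had 5 respiratory chain genes higher, and 1 glycolysis or hypoxia gene higher and 6 lower. Over all 18417 genes, 1423 were higher and 1731 lower at that threshold. The same totals apply to the HOX, cancer-testis, and erythroid and platelet lists above.

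**Figure D5:**
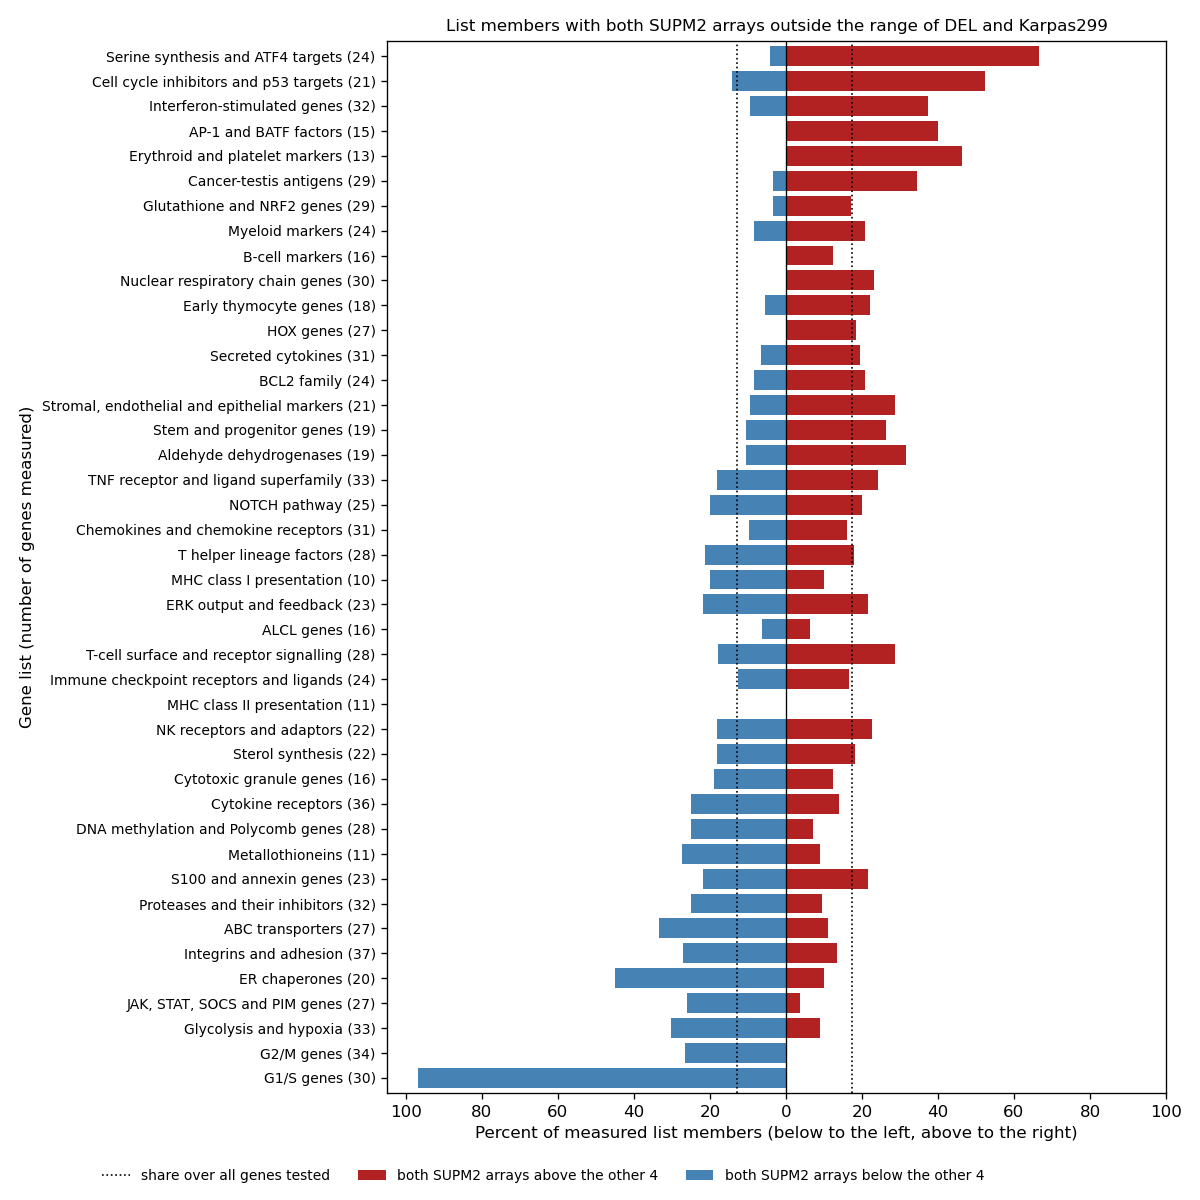
Percent of the measured members of each gene list with both SUPM2 arrays above (red, right) or below (blue, left) the 4 arrays of DEL and Karpas299, with the number measured in parentheses and dotted lines at the shares over all genes (17.3% above, 12.9% below). The G1/S list reaches 96.7% below, the serine and ATF4 list 66.7% and the p53 list 52.4% above, while many lists stay near the dotted lines.

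The difference of SUPM2 from the other lines was not called to be of another size in SP than in MP cells for any gene. In limma's test of the interaction with population, 0 genes passed, 847 had an unadjusted p under 0.05 and the smallest adjusted p was 1.00, with 2 residual degrees of freedom. A miss does not show that the populations were alike. At the edge of the range, CCDC106 at 6.52 and 6.38 in SUPM2 was counted as above, its lower value equal to the highest other value (6.38) to 2 decimals, as was TMC5, and CIB3 and CIDEA just missed. SOCS6 at 4.70 and 4.80, against a lowest other value of 4.80, and ARF3 were counted as below, and ACTL7A and SNORD116-24 just missed. The 1 called gene within the range, named after its values were seen, was SNORD1A, a small nucleolar RNA, at 4.41 and 3.06 in DEL, 5.25 and 3.28 in Karpas299 and 7.04 and 5.03 in SUPM2. Its SP signal exceeded its MP signal in all 3 lines, and it differed by 2.03 with population as a covariate (limma adjusted p = 0.0398).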

How the data were processed

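Per the labels' protocols, RNA of sorted SP and MP cells was amplified with a NuGEN Ovation whole-transcript kit, biotinylated and measured on Affymetrix arrays. The deposited log2 signals, 1 per probe set, were made by the authors with RMA (background correction, quantile normalization and summarisation), per the submitters' processing notes. The sources used here do not give whether the arrays were normalized together or whether the SP and MP cells of a line came from 1 culture. The 6 value columns of DEL, Karpas299 and SUPM2 were used as deposited, and 0 value columns lacked a sample. Arrays carry no read depth.

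Of 33297 probe sets, 19460 had 1 gene symbol in the platform's annotation, 1754 several and 12083 none, and 19429 matched RefSeq (GRCh38.p14) by Entrez identifier. Those with several symbols were left unnamed. For 769 genes with several probe sets, the one with the highest mean over the 6 arrays was used, which left 18417 genes. SUPM2 was tested against the other 4 arrays with limma 3.58.1 in R 4.3.3, using lmFit and eBayes, with population as a covariate and 3 residual degrees of freedom, two-sided, and the interaction with population was tested in a second fit. The spread between DEL and Karpas299 stays in the error, so a called difference must exceed it. A gene was called at an adjusted p under 0.05. Gene lists (42) are described by counts and medians without a test. The members and lists were chosen with earlier results of these data known.

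Among the genes reported here, the naming rule took the 15 called genes with the largest gap in each direction. It also took up to 6 members outside the range with the largest gap from each list, and TNFRSF8, NPM1, IL2RA, CD4, CD3E, GZMB and PRF1. Further members are given where the account of a list needed them. Sex-linked marker genes are not reported here. Alternatives dropped the dimmest 25% of genes, normalized or centred the columns again, averaged probe sets, tested every probe set, changed the variance model, the covariate, the line model or the comparison line, added line as a random block, asked for a difference of 1 as well, or left out each array. The fits were tested on simulated data in which the noise of each array was drawn independently. The simulation therefore does not cover the link between the SP and MP arrays of a line.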

Additional observations from a re-analysis of the deposited data

Results flagged for a closer look

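The mean over 24 immune checkpoint genes in SUPM2 lay above both other lines in SP cells, by 0.0037 over their mean, and below both in MP cells, by -0.17. The mean over 28 T helper lineage factors lay below both other lines in SP cells, by -0.29, and above both in MP cells, by 0.085. These lists are given because the sign of the value differs between the 2 populations. There is 1 array behind each value, and the SP value of the checkpoint list is close to 0, so no direction is read from it. The difference between populations was not tested for a list.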

How the results depend on the processing

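Line and culture cannot be told apart with 1 line against 2, and 6 arrays leave few degrees of freedom. The main count of 404 called genes became 99 (42 higher, 57 lower) with every probe set tested, 266 with a robust trended variance, 685 without the population covariate, 1273 with a level for each line, 869 against Karpas299 alone, and 0 to 18 without 1 array. In the 7 other alternatives it was 374 to 411. The share called higher was 31.9%, and 35.3% and 30.5% after quantile normalization and centring, where the median over all genes was 0.03 and 0.04. Genes outside the range numbered 8985 with every probe set and 1359 with a difference of at least 1 as well. They numbered 9364 against Karpas299 alone, 9828 against DEL alone and 6435 to 10514 without 1 array. With arrays left out, the count can only stay at 5567 or rise. The interaction gave 0 genes in the 5 alternatives run, which were added after seeing the data. Small differences that reversed were CD4 (-0.11 against Karpas299 alone), CD3E (0.046 against Karpas299 alone, -0.19 to 0.18 without 1 array), NPM1 (-0.0090 against DEL alone) and IL2RA (0.11 against DEL alone, -0.42 to 0.12 without 1 array). For named genes, 3757 of the alternative values kept their direction and side of the threshold, 486 lost the call and 133 gained one. List medians stayed within the spread between arrays in 538 alternatives and moved in 50. The cause was not tested. No paired analysis was possible because the compared arrays come from different lines and carry no replicate numbers. SP and MP arrays of 1 line were linked by the fit with the line as a random block, which called 374 genes.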

Other observations

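Other lists held large differences without a call. EPAS1, the hypoxia factor HIF-2 alpha, stood at 11.19 and 11.40 in DEL, 9.82 on both Karpas299 arrays and 8.95 and 9.11 in SUPM2, while BNIP3, a mitophagy receptor induced by hypoxia, stood at 6.57 and 7.38, 9.51 and 9.43, and 10.24 and 10.27. SUPM2 was the lowest line for the first and the highest for the second. The urokinase receptor PLAUR stood at 11.27 and 11.24, 8.93 and 9.35, and 6.83 and 7.33, with SUPM2 lowest, and the metalloprotease inhibitor TIMP4 at 4.05 and 5.33, 7.66 and 7.55, and 8.49 and 8.35, with SUPM2 highest. S100A2 was 7.87 and 7.93, 4.90 and 4.22, and 8.99 and 8.76, and S100A8, a calcium-binding protein of myeloid cells, was 6.26 and 8.68, 5.81 and 5.89, and 3.83 and 3.27. None of the 6 passed limma's test (adjusted p from 0.142 to 0.386), and DEL and Karpas299 differed as well.

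NOTCH pathway genes lay above for 5 of 25 and below for 5 (20% each, against 17.3% and 12.9% of all genes). The receptors NOTCH1 and NOTCH2 stood at 5.81 and 6.17, and 6.40 and 6.87 in SUPM2, against 6.71 to 8.03 and 7.25 to 8.14 in DEL and Karpas299, and the ligand JAG1 at 5.65 and 5.52 against 4.63 to 5.11. Early thymocyte genes (4 of 18 above, 1 below), MHC class I genes (1 of 10 above, 2 below), metallothioneins (1 of 11 above, 3 below), sterol synthesis genes (4 of 22 above, 4 below) and the ALCL gene list (1 of 16 above, 1 below) gave 0 calls by limma. At an unadjusted p under 0.05 these 5 lists had 0, 1, 0, 1 and 0 genes higher and 0, 2, 1, 2 and 1 lower. Over all 18417 genes, 1423 were higher and 1731 lower at that threshold.

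By autosome, the share of genes with both SUPM2 arrays above ran from 11.2% on chromosome 14 to 20.2% on chromosome 8, and the share below from 8.41% on chromosome 19 to 19.6% on chromosome 14. Among the 99 probe sets called when all were tested, 18 had no gene symbol and 2 had several.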
